A study of Mus musculus with 4 samples.

Results

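The genes described here make prostaglandins, thromboxane and leukotrienes, the signalling lipids called eicosanoids. They were read in cultured vascular smooth muscle cells (VSMCs) of mouse thoracic aorta. The rule named 10 genes and took array rows annotated with a single gene symbol. Where a gene had several rows, the row was chosen by its highest mean over the 4 arrays. Of the 10 names, 9 had such a row, among 22180 genes in all: Ptgs2, Hpgds, Ptges, Ptgis, Tbxas1, Alox5ap, Alox5, Lta4h and Ltc4s. Ptgs1, the constitutive cyclooxygenase, had no row under its own symbol and was not analysed here. The mean level over the 4 arrays, which chose the rows, does not use the contrast between groups. The list itself was put together with earlier results of these arrays known, Hpgds being one of the genes already seen to differ, so Hpgds is described without a test and left out of the counts of tests on members.

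Both groups were primary VSMCs of mice homozygous for a floxed Mmp14 allele, the gene of the membrane-anchored matrix metalloproteinase MT1-MMP, and for a null allele of Apoe. The mice were on a Western diet for 3 months, and no source used here gives their ages. The controls were SM22α-Cre(−)Mmp14(fl/fl)Apoe(−/−) and the knockouts SM22α-Cre(+)Mmp14(fl/fl)Apoe(−/−), so that Cre, driven by the SM22α (Tagln) promoter, can delete Mmp14 where that smooth muscle promoter is active. Each group had 2 arrays, from 2 independent pairs of mice. The cells had been released with collagenase after removal of the adventitia and cultured for 5 days, and cDNA was amplified from 10 ng of total RNA. The comparison asks how loss of MT1-MMP changes the transcripts of these cells. All values are log2 expression values on the authors' normalised scale, and with 2 arrays against 2 an exact two-sided permutation test cannot give a p below 0.333.

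As background, eicosanoid synthesis begins when a phospholipase releases arachidonic acid from membranes. Cyclooxygenases turn it into prostaglandin H2, from which terminal synthases make prostaglandin D2, prostaglandin E2, prostacyclin or thromboxane A2. 5-lipoxygenase, aided by its activating protein FLAP, instead makes leukotriene A4, which becomes leukotriene B4 or leukotriene C4. In arteries, prostacyclin from endothelium and smooth muscle relaxes the vessel and restrains platelets, thromboxane does the reverse, and leukotrienes come mainly from myeloid cells.

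Mmp14, the targeted gene, checks the labels only in part. It read 8.71 and 9.05 in control arrays against 8.27 and 8.19 in knockout arrays, a difference of -0.65 (limma, adjusted p = 0.319). The value summarises probes that can lie outside the floxed exons. Tagln differed by -0.01 with overlapping groups, and Apoe, disrupted in both groups, by -0.36 (limma, adjusted p = 0.502). All 9 smooth muscle markers on a fixed list, among them Acta2, Myh11, Cnn1 and Smtn, lay above the filter level of 3.02. The log2 of their summed linear values was 12.3 and 11.8 in control arrays against 12.5 and 11.9 in knockout arrays. All 13 macrophage markers also lay above the filter level in these cultures, and all 13 were higher in the knockouts, 11 of them without overlap (16.7% of all genes were), with a summed level of 12.1 and 12.1 against 12.6 and 12.9. Of 9 endothelial markers above the level, 6 were lower without overlap (27.5% of all genes were) and 3 higher. Kdr was higher by 0.32 without overlap, and Vwf and Flt1 by 0.29 and 0.10 with overlap. Tie1, among the 6 lower, had a knockout mean of 3.00, so that it passed the filter through the control arrays. The 10 endothelial markers with a row had a summed level of 10.3 and 9.23 in control arrays against 7.84 and 8.05 in knockout arrays.

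Prostaglandin D2 synthase and FLAP transcripts were at 2.65 and 2.92 times the control level in the knockout arrays, prostacyclin synthase at 0.484 times and cyclooxygenase-2 at 0.620 times. Thromboxane synthase and leukotriene C4 synthase were also higher. 5-lipoxygenase, prostaglandin E2 synthase and leukotriene A4 hydrolase had overlapping groups. None of the 8 members other than Hpgds passed the test over all genes: of 12550 genes, limma gave 0 (0%) an adjusted p under 0.05 and 1465 an unadjusted p under 0.05.

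All 9 members passed the filter on dim genes, the nearest to it being Ltc4s, with a mean of 3.40 over the 4 arrays. In 4 of the 9 the knockout arrays lay above both controls, against 16.7% of all genes tested, and in 2 they lay below both, against 27.5%. Of the 8 members other than Hpgds, limma had 3 higher (against 4.89% of all genes) and 2 lower (against 6.78%) at an unadjusted p under 0.05. The median difference of the 9 was 0.05, with 5 higher and 4 lower, beside -0.05 over all 12550 genes, 5234 higher and 7316 lower. Since the genes were chosen with results in view, these counts describe the list and support nothing about it.

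**Figure D1:**
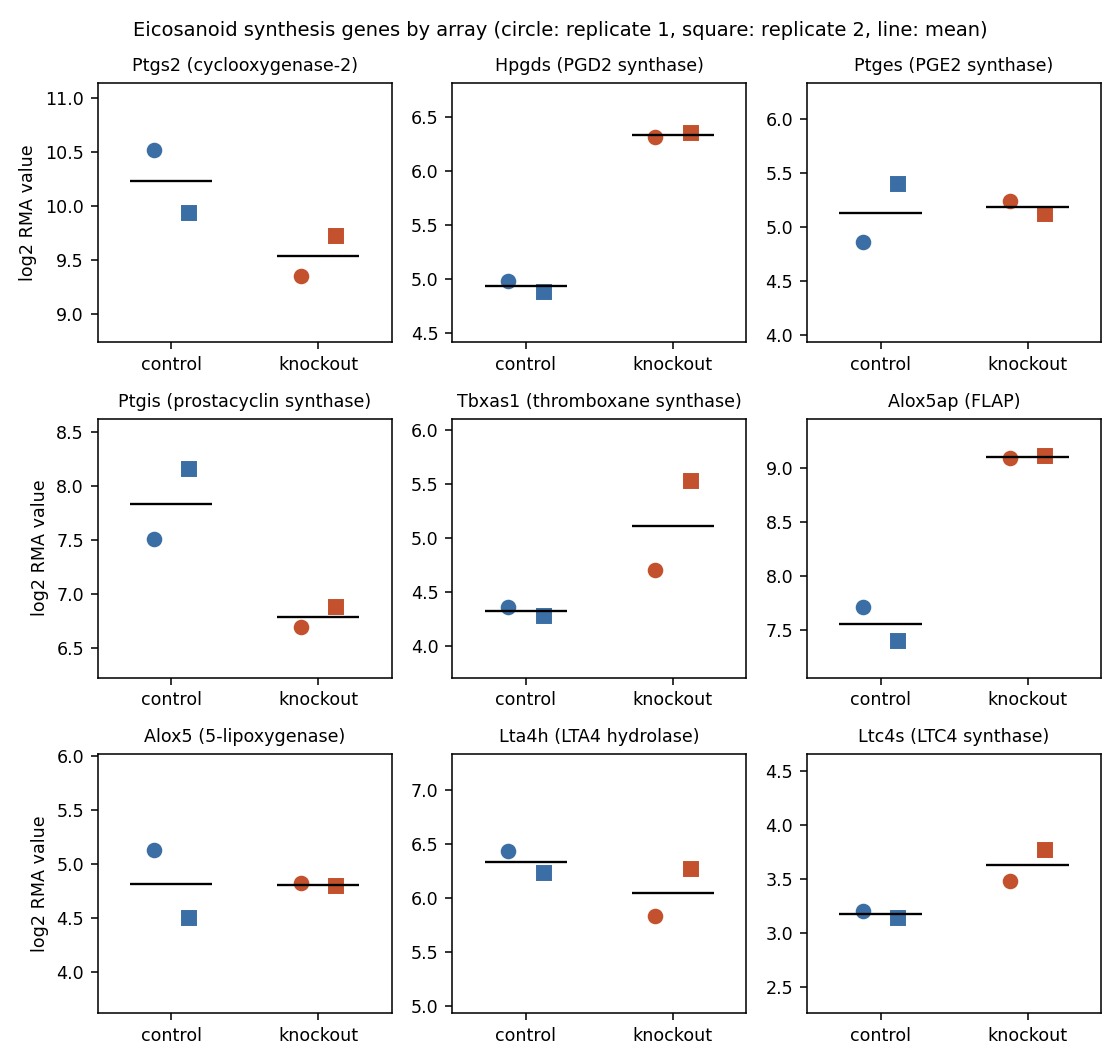
Log2 expression values of the 9 genes in each array, with controls in blue and knockouts in orange. Circles are replicate 1, squares replicate 2 and lines the group means; every panel spans the same number of log2 units, centred on its own gene. The knockout points of Hpgds and Alox5ap sit together above both controls, and those of Ptgis below both.

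Ptgs2 encodes cyclooxygenase-2, the inducible enzyme that commits arachidonic acid to the prostanoid branch. It read 10.5 and 9.94 in control arrays against 9.36 and 9.73 in knockout arrays. Both knockout arrays lay below both controls, though knockout replicate 2 was only 0.21 below control replicate 2. The difference was -0.69 (SE 0.26), a ratio of 0.620, with a 95% interval of -1.37 to -0.01 (limma, adjusted p = 0.422). Without control replicate 1 it was -0.40. Of the 9 endothelial markers 6 were lower and 3 higher between the same groups. Tie1, among the 6 lower, passed the filter through the control arrays. The part of these markers in the Ptgs2 result was not tested. In bulk cultures fewer cells of a type and less RNA per cell cannot be told apart.

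Hpgds encodes the hematopoietic prostaglandin D synthase, a glutathione-dependent enzyme known from mast cells, macrophages and other blood-derived cells. It read 4.98 and 4.88 in control arrays against 6.32 and 6.35 in knockout arrays. The groups lay 1.34 apart at their nearest arrays, with an SD of 0.08 in the controls and 0.02 in the knockouts. The difference was 1.40, a 2.65-fold ratio, and it stayed between 1.35 and 1.46 when any single array was left out. The macrophage markers moved in the same direction between the same groups, with a median difference of 1.15 and a range of 0.10 for Aif1 to 2.08 for Mrc1, and their part in the Hpgds result was not tested. Of 10 mast cell markers 9, among them Cpa3, Kit, Fcer1a, Ms4a2 and Mcpt4, were below the filter level of 3.02. The tenth, Gata2, which endothelium also expresses, read 4.68 and 4.32 in control arrays against 3.30 and 3.10 in knockout arrays.

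The array reports RNA only, but the sequence before a gene's listed start shows which known motifs lie near that start. The RefSeq promoter table (GRCm38.p6) held 8 of the 10 names, Ptgis and Alox5ap not among them. Shown are the 250 bases before the listed start of Hpgds and Tbxas1, both higher in the knockouts, and of Ptgs2, lower there. The Hpgds and Tbxas1 stretches lie within the RefSeq spans of their genes, chr6:65117293-65144981 and chr6:38864159-39084590. Their listed starts are thus not the outermost ends of those spans. Capitals mark matches on either strand to GAGGAA or GAGGAAGT (the core bound by the myeloid factor PU.1), TATAAA (the TATA box), TGACGT (the cyclic AMP response element), CACGTG (the E-box) and TTGCNNAA (C/EBP). The lines are written 5′ to 3′ on the gene's strand, for Hpgds at chr6:65144731-65144980 (minus), Tbxas1 at chr6:38918736-38918985 (plus) and Ptgs2 at chr1:150099781-150100030 (plus).
Hpgds: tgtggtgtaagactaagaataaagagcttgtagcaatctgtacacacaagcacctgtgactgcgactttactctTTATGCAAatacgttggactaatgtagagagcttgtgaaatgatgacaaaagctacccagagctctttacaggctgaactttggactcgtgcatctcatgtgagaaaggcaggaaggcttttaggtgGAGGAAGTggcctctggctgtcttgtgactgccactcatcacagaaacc
Tbxas1: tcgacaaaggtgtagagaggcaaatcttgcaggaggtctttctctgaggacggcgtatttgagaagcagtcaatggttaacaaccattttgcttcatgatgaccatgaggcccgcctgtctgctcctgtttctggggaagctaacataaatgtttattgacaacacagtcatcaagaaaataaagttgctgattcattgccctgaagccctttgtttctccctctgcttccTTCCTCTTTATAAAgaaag
Ptgs2: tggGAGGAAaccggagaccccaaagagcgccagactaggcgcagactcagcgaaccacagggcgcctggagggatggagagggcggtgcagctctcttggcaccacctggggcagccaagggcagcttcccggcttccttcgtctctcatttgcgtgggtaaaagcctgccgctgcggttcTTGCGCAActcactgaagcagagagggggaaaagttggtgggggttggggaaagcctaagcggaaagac

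The Hpgds stretch holds GAGGAAGT starting 49 bases before the listed start, a run that 3.20% of the 32851 promoter windows in the table hold on either strand. Among the members' windows it occurs also in that of Ptgs1, starting 24 bases before the start. The shorter GAGGAA, contained in it, is in all 8 of the members' windows and in 28.3% of all windows. The Tbxas1 stretch holds TATAAA starting 11 bases before the listed start, overlapped by its reverse complement, and 13.6% of windows hold it.

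The Ptgs2 window holds TGACGT (on the other strand) and an overlapping CACGTG starting 13 and 17 bases after the listed start, present in 7.51% and 7.15% of windows. This 30-base stretch at chr1:150100033-150100062 (plus strand) shows the overlap in capitals.
Ptgs2 overlap: agtcaccactACGTCACGTGgagtccgctt
TTGCNNAA, in 10.8% of windows, is in those of Hpgds and Ptgs2. A match describes these letters and is no measure of binding in these cells.

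Ptges encodes the microsomal prostaglandin E synthase, which is induced together with cyclooxygenase-2 in inflamed tissue. It read 4.86 and 5.40 in control arrays against 5.24 and 5.12 in knockout arrays. Both knockout values lay between the 2 controls. The difference was 0.05 (SE 0.22, 95% interval -0.53 to 0.63; limma, adjusted p = 0.955). Its sign turned without control replicate 1 (-0.22) and without knockout replicate 1 (-0.01).

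Ptgis, prostacyclin synthase, is a cytochrome P450 family enzyme of endothelium and smooth muscle. It read 7.51 and 8.16 in control arrays against 6.70 and 6.88 in knockout arrays. Both knockout arrays lay below both controls, by at least 0.63. The difference was -1.05 (SE 0.25, 95% interval -1.71 to -0.38), a ratio of 0.484 and the most negative among the 9 genes (limma, adjusted p = 0.291). It was -0.72 without control replicate 2 and -1.37 without control replicate 1. Of the 9 endothelial markers above the filter level 6 were lower in the knockouts, Tie1 passing only through the control arrays, and 3 higher. The summed level of the 10 with a row was 10.3 and 9.23 in control arrays against 7.84 and 8.05 in knockout arrays. Between the controls, Ptgis was higher in replicate 2, and this summed level was higher in replicate 1. Of the 9 smooth muscle markers 4 were higher in the knockouts and 5 lower, with a median difference of -0.004. The part of either set of markers in the Ptgis result was not tested.

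Tbxas1, thromboxane A synthase, belongs to the same P450 superfamily and is known from platelets and macrophages. It read 4.36 and 4.28 in control arrays against 4.70 and 5.53 in knockout arrays. Both knockout arrays were above both controls, but knockout replicate 2 stood well above replicate 1. The difference was 0.79 (SE 0.30, 95% interval 0.01 to 1.58), a 1.73-fold ratio (limma, adjusted p = 0.424). Without knockout replicate 2 it was 0.38, and without knockout replicate 1 it was 1.21. Of the 13 macrophage markers 9 were higher in knockout replicate 2 than in replicate 1, among them the myeloid integrin Itgam (8.02 against 6.41), and 4 were lower, among them Fcgr1 (5.84 against 6.35) and Adgre1 (7.59 against 7.92). The chemokine Pf4 read 8.12 in replicate 2 and 5.49 in replicate 1. Pf4 is abundant in platelets and also made by macrophages. Of the other platelet and megakaryocyte markers with a row, Itga2b, Gp9 and Gp6 were below the filter level, and Ppbp and Treml1 had overlapping groups. The part of these cells in the Tbxas1 result was not tested.

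Alox5ap encodes FLAP, the membrane protein that presents arachidonic acid to 5-lipoxygenase. It read 7.72 and 7.40 in control arrays against 9.10 and 9.12 in knockout arrays. Both knockout arrays lay above both controls, by at least 1.38, and were 0.02 apart. The difference was 1.55 (SE 0.17, 95% interval 1.11 to 1.98), a 2.92-fold ratio and the largest positive one among the 9 genes (limma, adjusted p = 0.144). It ran from 1.39 to 1.71 with single arrays left out. A second row of the array for the same gene, not used by the rule, read 7.36 and 7.27 in control arrays against 8.88 and 8.82 in knockout arrays, a difference of 1.53. The macrophage markers, whose part was not tested here either, had a median difference of 1.15.

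Alox5 encodes 5-lipoxygenase itself. It read 5.13 and 4.50 in control arrays against 4.82 and 4.79 in knockout arrays, so that both knockout values lay between the 2 controls. The difference was -0.01 (SE 0.24, 95% interval -0.65 to 0.63; limma, adjusted p = 0.994). A second row gave 3.49 and 2.96 in control arrays against 3.19 and 3.38 in knockout arrays, a difference of 0.06. Without control replicate 1 the difference of the first row was 0.31, and without control replicate 2 it was -0.32. The interval for Alox5 lies below that for Alox5ap, but a difference between the 2 genes was not tested.

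Lta4h, the hydrolase that makes the neutrophil attractant leukotriene B4, read 6.43 and 6.23 in control arrays against 5.83 and 6.26 in knockout arrays. Knockout replicate 1 was the low array, and replicate 2 lay between the controls. The difference was -0.28 (SE 0.20, 95% interval -0.81 to 0.25; limma, adjusted p = 0.637), and -0.07 without knockout replicate 1.

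Ltc4s, the synthase of the cysteinyl leukotriene C4, read 3.20 and 3.14 in control arrays against 3.48 and 3.77 in knockout arrays. Both knockout arrays were above both controls, and the controls lay close to the filter level of 3.02. The difference was 0.45 (SE 0.16, 95% interval 0.03 to 0.88), a 1.37-fold ratio (limma, adjusted p = 0.402). Without knockout replicate 2 it was 0.31. Dim probes carry background, so such a ratio can understate a change, and no background level was measured.

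**Figure D2:**
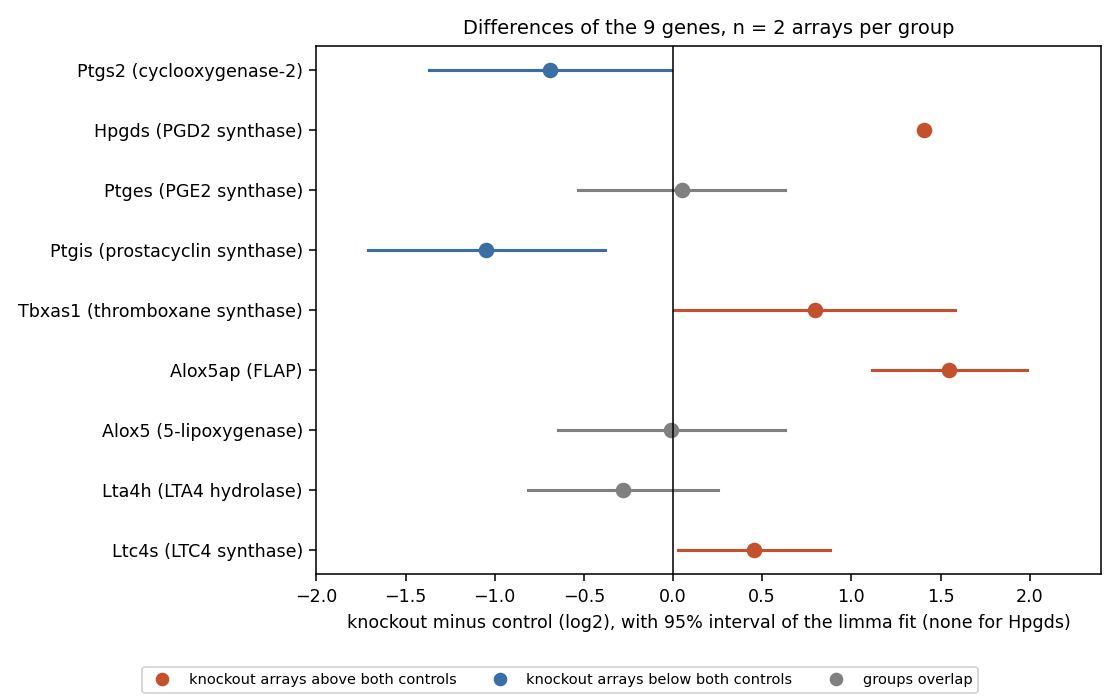
Knockout minus control differences (log2) of the 9 genes, with the 95% interval of the limma fit over all genes (none drawn for Hpgds), from 2 arrays per group. Orange marks genes whose knockout arrays both lay above the controls (Hpgds 1.40, Tbxas1 0.79, Alox5ap 1.55, Ltc4s 0.45), blue those below (Ptgs2 -0.69, Ptgis -1.05) and grey those with overlapping groups.

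Along the prostanoid branch, then, both Ptgs2 and Ptgis were lower, Hpgds and Tbxas1 higher and Ptges within the spread of the controls. Along the leukotriene branch FLAP and leukotriene C4 synthase were higher, with 5-lipoxygenase and leukotriene A4 hydrolase overlapping. These are differences in RNA, and no eicosanoid was measured.

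The other genes of the pathway were read from a list of 50, of which 44 had a row and 24 lay at or above the filter level. Of these 24, limma called 0, with 13 higher and 11 lower, and a median difference of 0.01. Without overlap 6 were higher and 8 lower, where 16.7% and 27.5% of all genes tested were. A gene can pass the filter through 1 group alone, as Ptger2 and Pla2g10 did, so these counts are a description.

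Of 6 genes of arachidonic acid release above the filter level, 5 were lower, 3 without overlap, where 7316 of all 12550 genes were lower and 27.5% lower without overlap. Pla2g4a, the cytosolic phospholipase A2 that supplies most eicosanoid synthesis, read 7.98 and 8.01 in control arrays against 7.64 and 7.44 in knockout arrays, a difference of -0.46 (SE 0.15; limma, adjusted p = 0.368). Pla2g6, the calcium-independent enzyme, differed by -0.68 (SE 0.22; limma, adjusted p = 0.370), and by -0.46 without control replicate 1. Pla2g10, a secreted phospholipase, differed by -0.61, with knockout replicate 2 at 2.52 and the other 3 arrays between 3.28 and 3.56, and by -0.23 without that array. The remaining terminal synthases Prxl2b, Ptges2 and Ptges3 differed by -0.38, -0.23 and -0.09, all lower without overlap. Prxl2b differed by -0.13 without knockout replicate 1, Ptges2 by -0.14 without control replicate 2 and Ptges3 by -0.04 without control replicate 1. Ptgds, the lipocalin-type prostaglandin D synthase that is the counterpart of Hpgds, lay below the filter level in all 4 arrays, at 2.78 and 2.67 in control arrays against 2.27 and 2.27 in knockout arrays.

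Breakdown and transport genes showed no common direction, with 4 of 6 higher. Slco2a1, the prostaglandin uptake transporter, read 9.02 and 9.61 in control arrays against 8.78 and 8.77 in knockout arrays, a difference of -0.54 (SE 0.23; limma, adjusted p = 0.470), and of -0.24 without control replicate 2. Ptgr2, a prostaglandin reductase, differed by 0.15 without overlap, and by 0.06 without control replicate 2.

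All 4 prostanoid receptors above the filter level were higher in the knockouts, 2 without overlap. Of all 12550 genes 5234 were higher, and 16.7% were higher without overlap. The 3 receptors with a row below the level did not share a direction. Ptger4, the EP4 receptor of prostaglandin E2, read 4.13 and 3.73 in control arrays against 4.68 and 4.42 in knockout arrays, a difference of 0.62 (SE 0.20; limma, adjusted p = 0.374). Ptger2, the EP2 receptor, differed by 0.35 with a control mean of 2.99, just under the filter level, so that it passed the filter through the knockout arrays. The prostacyclin receptor Ptgir and the thromboxane receptor Tbxa2r differed by 0.18 and 0.22 with overlapping groups.

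Downstream of leukotriene C4, Dpep2, a dipeptidase of the membrane dipeptidase family that turns leukotriene D4 into E4, had the largest difference of the pathway list. It read 5.32 and 3.87 in control arrays against 6.55 and 5.94 in knockout arrays. The groups did not overlap, but the controls lay 1.45 apart. The difference was 1.65 (SE 0.53, 95% interval 0.28 to 3.03; limma, adjusted p = 0.366), and 0.93 without control replicate 2. Mgst2, a microsomal glutathione S-transferase that can also make leukotriene C4, differed by 0.56 (SE 0.19; limma, adjusted p = 0.385) and by 0.35 without knockout replicate 2. Abcc1, an exporter of leukotriene C4, differed by -0.26 without overlap, and by -0.12 without control replicate 2 and -0.41 without control replicate 1.

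All 4 leukotriene and oxoeicosanoid receptors with a row and all 6 other lipoxygenases, Alox15 among them, had means below the filter level and were not tested. Of these Cysltr1, a receptor for the cysteinyl leukotrienes, read 2.44 and 2.60 in control arrays against 2.96 and 3.41 in knockout arrays.

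**Figure D3:**
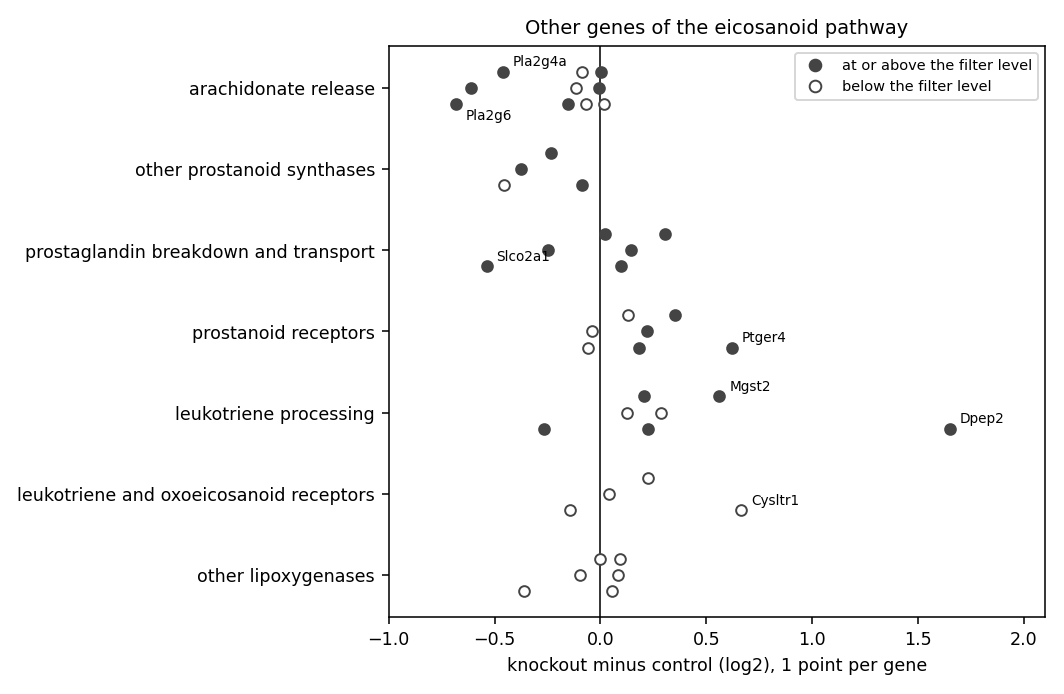
Knockout minus control differences (log2) of the other eicosanoid pathway genes, 1 point per gene from 2 arrays per group, in the 7 sublists. Filled points lie at or above the filter level of 3.02 and open points below it. Dpep2 stands apart at 1.65, and the filled points for arachidonate release lie at or below about 0.

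Most markers of other leukocytes lay below the filter level. Of 9 neutrophil markers 6 did, among them S100a9, Ly6g, Mpo and Elane. S100a8 and Cxcr2 had overlapping groups, S100a8 reading 4.96 and 5.43 in control arrays against 4.72 and 6.67 in knockout arrays. Csf3r was higher without overlap, at 3.17 and 2.99 in control arrays against 3.72 and 3.23 in knockout arrays. Of 7 T and NK cell markers with a row 6 had means below it, as did 4 of 5 B cell markers. The exceptions were Nkg7, with a difference of 0.35, and Cd22, which read 3.74 and 3.84 in control arrays against 4.07 and 5.53 in knockout arrays. The T cell genes Cd3d, Cd3e, Cd3g and Cd2 were above the level in knockout replicate 2 alone, at 3.17, 3.56, 3.16 and 3.15. Ncr1 read 3.10 in knockout replicate 1 and 2.82 in replicate 2, and Gzma 2.20 and 2.24. Among fibroblast and adventitial markers 4 of 6 were higher and 2 lower, from Dpt at -1.51 to Lum at 0.74. Among smooth muscle markers 4 of 9 were higher and 5 lower, from Smtn at -0.55 to Actg2 at 1.14.

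**Figure D4:**
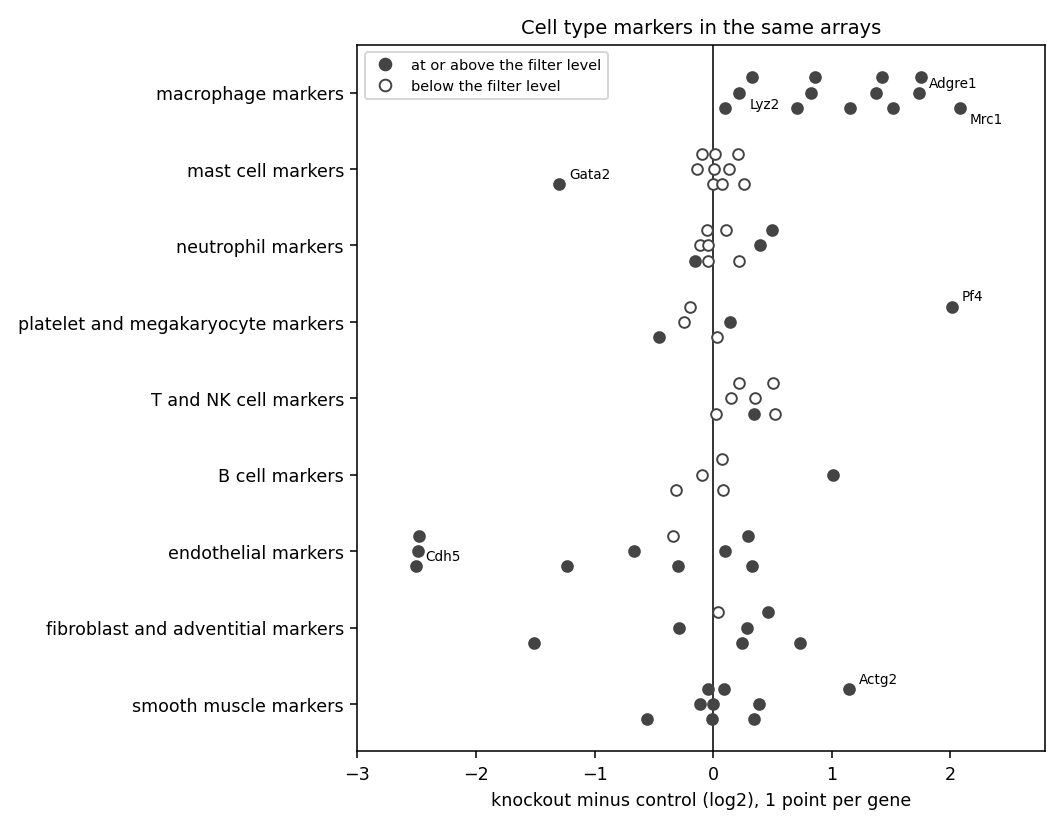
Knockout minus control differences (log2) of cell type markers in the same arrays, 1 point per gene, filled at or above the filter level and open below it. All 13 macrophage points lie above 0, with a median of 1.15, and 9 of 10 mast cell points are open.

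Genes with a 4-array pattern like that of Hpgds were sought by the Euclidean distance between log2 profiles, each centred on its own mean. The search covered the 12550 genes except for symbols set aside beforehand, among them provisional clone names ending in Rik. A gene set aside can therefore lie nearer than those named. Nearest to Hpgds in this search was C3ar1, the receptor of complement fragment C3a, at a distance of 0.13. Then came Cxcr4, a chemokine receptor, at 0.15, and Slc7a8, an amino acid transporter, at 0.15. Pik3r5, a regulatory subunit of PI3-kinase gamma, followed at 0.16 and Cd14 at 0.18. C3ar1 read 8.02 and 7.95 in control arrays against 9.40 and 9.26 in knockout arrays. The 5 genes differed by 1.35 to 1.51, beside 1.40 for Hpgds. In the same search the genes nearest to Ptgis were Fam171b at 0.08, Lrrtm2 at 0.16 and Loxl4, a lysyl oxidase family gene, at 0.20. Gnai1, an inhibitory G protein subunit, followed at 0.21 and Ttll7 at 0.21. Gnai1 read 6.34 and 6.99 in control arrays against 5.55 and 5.48 in knockout arrays, and the 5 genes differed by -1.15 to -0.99, beside -1.05 for Ptgis. Differences close to those of Hpgds and Ptgis follow from the search, which used the same values. The likeness rests on 4 arrays, and Hpgds and Ptgis were themselves picked for their differences.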

How the data were processed

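The deposited table held log2 expression values, which the authors had made with RMA per the submitters' processing notes; RMA corrects background, normalises arrays against each other and summarises probes per transcript cluster, so a difference is relative to the other genes. The log base was inferred from the range of values. No source used here gives the software version, chip definition or genome build. The platform annotation gave 23521 of 41345 rows a single symbol and 1814 several, and did not list 16010. A filter at the median row mean (3.02) removed 9630 of 22180 genes. The other 12550 entered 1 fit of knockout against control arrays with no covariate (limma 3.58.1 in R 4.3.3, lmFit and eBayes), and a gene was called where its Benjamini-Hochberg adjusted p lay under 0.05. The procedure was tested on simulated data.

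Array data have no read depth; precision is limited by the number of arrays. The design text names 2 pairs of mice, so mouse, culture and hybridisation all enter the spread behind each p-value.

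The members and lists were chosen with earlier results of these data known. Named were the members, Mmp14, Tagln and Apoe, up to 3 non-overlapping genes per pathway list with the largest difference, and marker genes. Also named were the 5 nearest profiles to Hpgds and to the most negative member, among the symbols searched. Ptgds, Ptgir, Tbxa2r, Cysltr1, Alox15 and the markers given with array values were named after their values were seen. Gene symbols came from the platform annotation, and promoter windows from RefSeq (GRCm38.p6) by symbol. Alternatives were a replicate block, other filters, normalisations, row rules, eBayes settings, array weights and leaving out each array.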

Additional observations from a re-analysis of the deposited data

How the results depend on the processing

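Under 13 alternatives no gene was called by limma; 1465 genes had an unadjusted p under 0.05 at the planned settings, and 975 without control replicate 1. With the title number as a replicate block, 0 genes were called and the Hpgds difference was 1.40, with a smallest adjusted p of 0.0777 over all genes; the numbers are not stated to pair the mice, and deviations of same-numbered arrays correlated at 0.05 across genes. Of the 8 members other than Hpgds 5 had an unadjusted p under 0.05, but 3 with the block, a second quantile normalisation or arrays centred on their median, and 2 to 4 with single arrays left out, the fewest without control replicate 1. The median difference of the members, 0.05, ran from -0.011 to 0.318 with single arrays left out, and was -0.12 under the 75th percentile filter, which tests 6 members, 3 of them higher. The pathway count of 13 higher genes was 23 of 44 with no filter and 5 of 13 with the stricter filter, since each covers other genes. Of 442 comparisons of 35 named genes with an alternative, 435 kept direction and call and 7 turned: Alox5 was 0.026 with the mean of all rows, and with single arrays left out Alox5 ran from -0.32 to 0.31, Ptges from -0.22 to 0.32 and Tagln from -0.36 to 0.34. The cause of these shifts was not tested.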
